A study of Mus musculus with 6 samples.

Results

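The BCL2 family genes described here are 10 regulators of the mitochondrial route to cell death, chosen by name. They are the pro-survival genes Bcl2, Bcl2l1, Mcl1 and Bcl2a1b, the pore-forming effectors Bax and Bak1, and the BH3-only genes Bcl2l11, Bbc3, Pmaip1 and Bid. All 10 are among the 17546 genes of the deposited table, and all 10 passed the filter on low counts that left 13325 genes for the test. The RNA came from ILC2s, innate lymphocytes of the lung that make type 2 cytokines, sorted from BALB/c mice given 3 intranasal doses of 1 µg IL-33. Both groups grew in medium holding 10 ng/mL of IL-7 and the same dose of IL-2. For 24 h they also received a control (3 libraries, DMSO 1 to 3) or 10 µM Yoda1 (3 libraries, Yoda1 4 to 6). Yoda1 is a small molecule that opens the calcium-permeable channel Piezo1. The sample labels name the control DMSO, the solvent, whereas the deposited treatment column and the design text call it PBS. The name DMSO is used here. If the control was PBS, changes due to Yoda1 and to its solvent cannot be told apart. The comparison asks how opening the channel changes the ILC2 transcriptome. The labels name no separate mice or cultures for these libraries, so p-values measure the spread between libraries, which may be technical.

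Pro-survival BCL2 proteins sit on the outer mitochondrial membrane and hold the effectors BAX and BAK in check. BH3-only proteins are the stress sensors of the family: they occupy the groove of the pro-survival proteins, and some also activate the effectors, which then open pores that let cytochrome c out and start the caspase cascade. In lymphocytes, IL-7 and IL-2 sustain survival largely by keeping BCL2 and MCL1 high and BIM, the product of Bcl2l11, low. Transcript levels are only one layer of this control, since BID is activated by cleavage and MCL1 and NOXA are short-lived proteins.

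None of the 10 members passed the test for a difference between Yoda1 and DMSO. The count was 0 of 10 with edgeR's quasi-likelihood test at a Benjamini-Hochberg adjusted p under 0.05, where 1.49% of all tested genes were called. It was also 0 of 10 at an unadjusted p under 0.05, which 14.5% of all tested genes reached, and 0 of 10 with DESeq2 and with limma voom, which called 6.35% and 2.25% of genes. DESeq2 made more false calls than its nominal rate on simulated data, unlike edgeR and voom. Those data were drawn with the spread that edgeR had estimated for each gene, so they cannot rank the tools on the real counts. The groups overlapped for each of the 10 members, while 22.6% of tested genes had groups that did not overlap. The members' log2 fold changes of Yoda1 over DMSO ran from -0.34 to 0.25, with 5 positive and 5 negative. Their median was -0.049, beside 0.011 for all genes tested. With 3 libraries a group this does not show that the levels were equal, so the 95% interval of each change is given below with its level in every library. Levels are given as CPM, the counts relative to library size with TMM factors, and means are given ± SD (n = 3 per group).

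**Figure D1:**
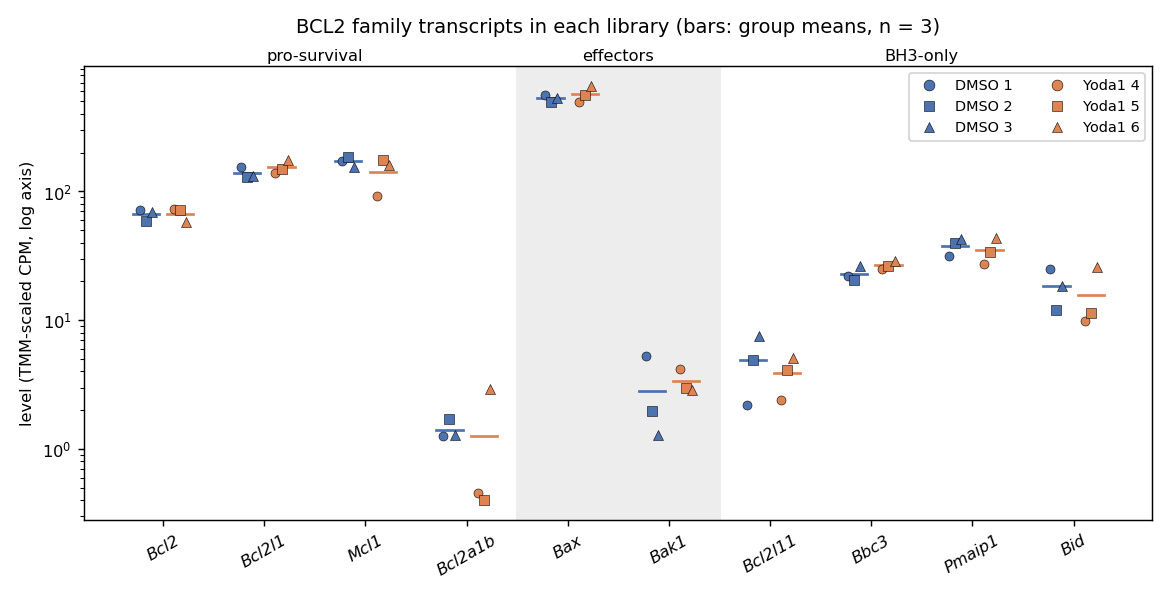
The plot of levels by library shows TMM-scaled CPM on a log axis for the 10 members, with points for the libraries and bars for group means (n = 3). Blue and orange points overlap for each member; Bax is the most abundant, and Bcl2a1b, Bak1 and Bcl2l11 lie below 10 CPM in every library.

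Total counts ran from 14214048 to 31627519 per library. The labels of DMSO 2 and DMSO 3 share one number (19) and those of Yoda1 4 and Yoda1 5 another (21). Within each pair the labels carry a further running index, which the labels of DMSO 1 and Yoda1 6 lack. What the label number and this index stand for is not given, so those pairs may not be independent samples. The labels also end in a suffix, 0 for DMSO 1 and DMSO 2 and 45 to 48 for DMSO 3 and the Yoda1 libraries. A fit with the suffix as a term therefore sets Yoda1 against DMSO 3 alone. All 12 ILC2 markers were listed, though Thy1 was low, at 1.48 to 2.89 CPM with DMSO and 0.115 to 1.24 CPM with Yoda1. The 12 markers summed to 9830 to 10450 CPM of all counts in the DMSO libraries and 11074 to 12208 in the Yoda1 libraries. Il5 alone made up 5343 to 5936 and 6935 to 8258 CPM of these sums, while 7 of the 12 markers had negative log2 changes (median -0.064), among them Icos, at 850 to 875 and 434 to 509 CPM. Of the 9 epithelial markers 8 were listed, and their sum was 419 and 403 CPM in DMSO 2 and DMSO 3 against 91.6 in DMSO 1 and 55.2 to 76.1 in the Yoda1 libraries. Scgb1a1 made up 302 and 293 CPM of the sums in DMSO 2 and DMSO 3 and at most 0.058 CPM elsewhere. Sftpa1, Krt8, Krt18 and Cdh1 were also highest in DMSO 2 and DMSO 3. Epcam was at 48.8 to 70.1 CPM in all 6 libraries, and Sftpc was highest in DMSO 1 (15.3 CPM). The sum of 8 macrophage and monocyte markers, 5 of them listed, was 11.3 to 13.9 CPM with DMSO and 61.5 to 117 CPM with Yoda1, of which Chil3 made up 0.443 to 1.11 and 42.0 to 92.8 CPM; Mrc1, Marco and Siglecf were not listed. Of 7 T cell markers, Cd4, Cd8a, Cd8b1 and Cd5 were not listed, and the sum was 33.7 to 36.6 CPM with DMSO and 19.3 to 29.1 with Yoda1. Nearly all of it was Cd3g (30.6 to 32.4 and 18.4 to 27.4 CPM). The 7 NK cell and ILC1 markers, without Ncr1, Klrb1c and Klra8, summed to 36.3 to 62.6 and 13.2 to 17.2 CPM, nearly all of it Gzma (35.8 to 58.8 and 11.3 to 14.6 CPM); the other tested marker, Prf1, had a log2 change of 0.42 and did not pass. The 2 listed of 5 erythroid markers summed to 6.33 to 8.72 and 10.0 to 19.1 CPM. No fibroblast marker was listed. The part of these cells in the members' levels was not tested, and in bulk RNA fewer cells of a type and less RNA per cell cannot be told apart.

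Among the pro-survival members, Bcl2 encodes the founding inhibitor of the family, a main target of IL-7 signalling in lymphocytes. It lies on chromosome 1 at 106538178 to 106714274 (GRCm38). Its level was 71.8, 59.4 and 68.8 CPM in DMSO 1, 2 and 3, and 73.2, 71.3 and 57.6 CPM in Yoda1 4, 5 and 6. The groups covered nearly the same range, with DMSO 2 and Yoda1 6 the lowest library of each. Its log2 change was 0.015 (SE 0.16, adjusted p = 0.98), and the 95% interval of the ratio of Yoda1 to DMSO was 0.79 to 1.29. The sign was negative without DMSO 2, Yoda1 4 or Yoda1 5 (-0.061, -0.049 and -0.027).

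Bcl2l1, on chromosome 2 at 152780668 to 152831728, encodes BCL-XL and, by another splice form, the pro-death BCL-XS; gene counts do not separate these forms. Its level was 154, 130 and 133 CPM with DMSO and 138, 149 and 175 CPM with Yoda1. Yoda1 6 was above every other library, while Yoda1 4 and Yoda1 5 lay within the DMSO range. A log2 change of 0.15 was estimated (SE 0.13, adjusted p = 0.65), with a ratio interval of 0.903 to 1.37.

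Mcl1, on chromosome 3 at 95658788 to 95663176, encodes a short-lived inhibitor that binds BAK, BIM and NOXA. It was at 172, 185 and 156 CPM in the DMSO libraries and at 91.7, 174 and 160 CPM in the Yoda1 libraries. Only Yoda1 4 was below the DMSO range. The change of -0.27 (SE 0.22, adjusted p = 0.63) had a ratio interval of 0.587 to 1.17, and without Yoda1 4 it was -0.037 (adjusted p = 0.93).

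Bcl2a1b encodes A1, an inhibitor induced by NF-kB and plentiful in granulocytes, and it is 1 of 3 copies in the table, beside Bcl2a1a and Bcl2a1d. The genes lie on chromosome 9 at 89199209 to 89207827, 88956900 to 88962419 and 88723285 to 88731914, in that order. Each copy has 2 exons and a coding sequence of 519 bases. Bcl2a1b and Bcl2a1d differ at 6 of these bases (98.8% identity), Bcl2a1a and Bcl2a1d at 7 (98.7%), and Bcl2a1a and Bcl2a1b at 11 (97.9%). The longest stretch without a difference is 217 bases between Bcl2a1b and Bcl2a1d and 314 bases between Bcl2a1a and Bcl2a1d. The 120 bases with the most differences are shown because they show how little tells the copies apart. They are the start of the coding sequence in GENCODE M21, 5′ to 3′, read at chr9:88957051-88957170 (plus strand) for Bcl2a1a, chr9:89199360-89199479 (plus strand) for Bcl2a1b and chr9:88731600-88731719 (minus strand) for Bcl2a1d. Capitals mark the 7 positions at which the copies differ. The bases are those of the reference strain, C57BL/6J, not of BALB/c.
Bcl2a1a: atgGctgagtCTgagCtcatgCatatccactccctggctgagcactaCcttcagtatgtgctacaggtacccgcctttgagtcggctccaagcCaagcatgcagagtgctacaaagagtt
Bcl2a1b: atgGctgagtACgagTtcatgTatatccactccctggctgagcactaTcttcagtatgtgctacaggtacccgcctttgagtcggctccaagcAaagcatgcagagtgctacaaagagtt
Bcl2a1d: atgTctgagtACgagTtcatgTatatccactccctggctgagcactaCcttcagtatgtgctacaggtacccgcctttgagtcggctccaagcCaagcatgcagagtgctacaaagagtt

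The deposited counts of all 3 copies were fractional in all 6 libraries, so the split between them is uncertain. Bcl2a1b was at 1.27, 1.70 and 1.27 CPM with DMSO and at 0.452, 0.404 and 2.92 CPM with Yoda1, from 7 to 54 counts per library. Yoda1 4 and Yoda1 5 were below the DMSO range and Yoda1 6 above it. Bcl2a1b had a log2 change of -0.17 (SE 0.87, adjusted p = 0.96), and the ratio interval ran from 0.225 to 3.51. Without Yoda1 6 the change was -1.71 (adjusted p = 0.35), and without Yoda1 4 or Yoda1 5 it was 0.23 or 0.25 (both adjusted p = 0.95). Bcl2a1d held most of the reads, at 9.99, 9.78 and 10.6 CPM with DMSO and 7.23, 5.31 and 15.8 CPM with Yoda1. The summed counts of the 3 copies were still fractional in DMSO 1, Yoda1 5 and Yoda1 6 (213.72, 99.68 and 324.84). Summing thus removes only the split among these copies. Summed over them, the level was 11.8, 11.6 and 12.6 CPM with DMSO and 8.58, 5.77 and 19.4 CPM with Yoda1. The DMSO libraries lay close together, whereas Yoda1 4 and Yoda1 5 were below them and Yoda1 6 above; the log2 change of the sum was -0.093 (SE 0.43, adjusted p = 0.95). Neutrophil markers were near 0 in all libraries: 1 of 7 was listed, at 0 to 0.563 CPM of all counts.

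The effector genes were Bax and Bak1, whose proteins form the pores in the outer mitochondrial membrane. Bax, on chromosome 7 at 45461697 to 45466898, was at 565, 491 and 532 CPM with DMSO and 491, 560 and 656 CPM with Yoda1. Yoda1 6 was again the highest of the 6 libraries, Yoda1 4 was level with DMSO 2, the lowest DMSO library, and Yoda1 5 lay within the DMSO range. Bax had a log2 change of 0.10 (SE 0.12, adjusted p = 0.74; -0.011 without Yoda1 6), and its ratio interval of 0.893 to 1.29 was the narrowest of the members, followed by those of Bcl2l1 and Bcl2.

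Bak1, on chromosome 17 at 27019810 to 27029009, was at 5.24, 1.96 and 1.27 CPM in the DMSO libraries and at 4.19, 3.00 and 2.86 CPM in the Yoda1 libraries, from 18 to 95 counts. The spread lay among the DMSO libraries, where DMSO 1 was above the Yoda1 range and DMSO 2 and DMSO 3 below it. The change of 0.25 (SE 0.61, adjusted p = 0.90) had a sign that depended on the library left out: it was 1.04 without DMSO 1 and -0.11 without DMSO 3 (adjusted p = 0.58 and 0.97). The ratio interval was 0.455 to 3.09.

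Of the BH3-only genes, Bcl2l11 encodes BIM, which sets the death of lymphocytes deprived of cytokine. It lies on chromosome 2 at 128126038 to 128162547. Its level was 2.21, 4.95 and 7.57 CPM with DMSO and 2.39, 4.10 and 5.13 CPM with Yoda1, from 37 to 157 counts. The Yoda1 libraries all fell inside the DMSO range. Its log2 change was -0.34 (SE 0.54, adjusted p = 0.83), with a ratio interval of 0.336 to 1.86; it was 0.098 without DMSO 3 (adjusted p = 0.98) and 0.80 for DMSO 1 alone against Yoda1 (adjusted p = 0.93).

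Bbc3, on chromosome 7 at 16308393 to 16318205, encodes PUMA, a p53 target that binds all pro-survival members. It was at 21.9, 20.4 and 26.3 CPM with DMSO and at 24.8, 26.4 and 28.9 CPM with Yoda1. The ranges overlapped only through DMSO 3, which lay above Yoda1 4. A log2 change of 0.22 was estimated (SE 0.20, adjusted p = 0.67), with a ratio interval of 0.852 to 1.6.

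Pmaip1, on chromosome 18 at 66458533 to 66465565, encodes NOXA, which pairs chiefly with MCL1 and A1. Its level was 31.5, 39.4 and 42.6 CPM with DMSO and 27.6, 33.9 and 43.4 CPM with Yoda1. Both groups spanned a similar range. The change of -0.11 (SE 0.22, adjusted p = 0.87) had a ratio interval of 0.652 to 1.31 and was 0.032 without Yoda1 4.

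Bid, on chromosome 6 at 120891930 to 120916853, encodes the protein that caspase-8 cleaves to carry a death receptor signal to mitochondria. It was at 24.8, 12 and 18.5 CPM with DMSO and at 9.81, 11.3 and 25.8 CPM with Yoda1. Yoda1 4 and Yoda1 5 were below the DMSO range and Yoda1 6 above it, as for Bcl2a1b. The log2 change was -0.23 (SE 0.42, adjusted p = 0.86), with a ratio interval of 0.439 to 1.65. Without Yoda1 6 it was -0.80 (adjusted p = 0.30), and it was 0.046 without DMSO 1 and 0.014 without Yoda1 4 (both adjusted p = 0.99).

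**Figure D2:**
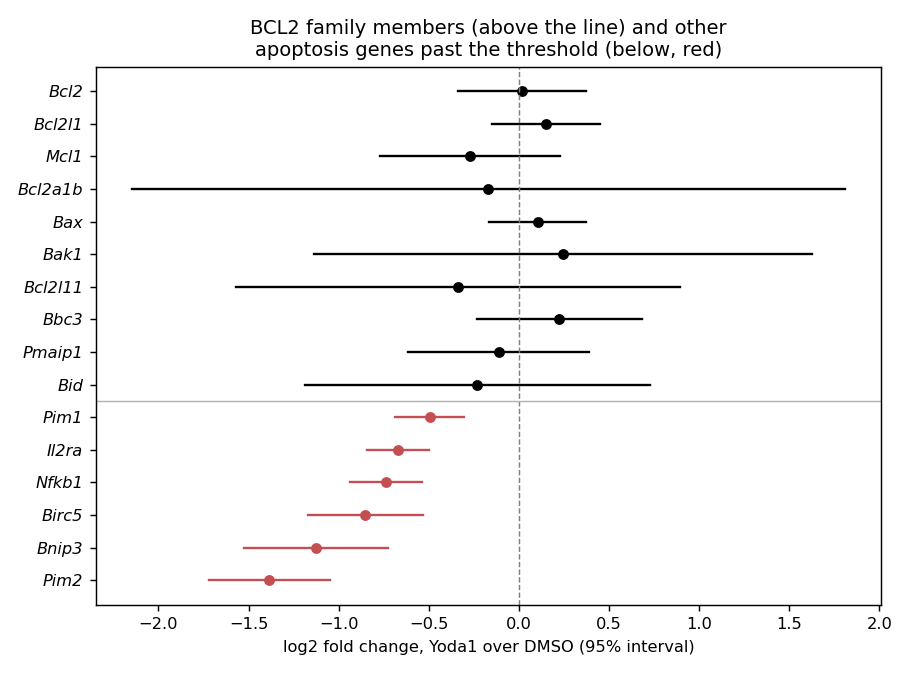
The plot of fold changes gives the log2 change of Yoda1 over DMSO with its 95% interval for the 10 members (above the line) and for the 6 other apoptosis genes past the threshold (below). Each member's interval includes 0, and the intervals of Bcl2a1b, Bak1 and Bcl2l11 are the widest; the intervals of the 6 other genes lie below 0.

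Set against each other by role, the 4 pro-survival members had a median log2 change of -0.077 and the 6 pro-death members one of -0.0044. Each group had as many positive as negative changes, 2 and 2 for the pro-survival and 3 and 3 for the pro-death members. Among the latter, both effectors had positive changes, and 3 of the 4 BH3-only genes had negative ones. None of these passed, so no direction is shown for a role.

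Levels of different genes can be compared only per length, and CPM per kilobase of exon was used for this. Bax was the most abundant member in both groups, at 336 ± 23 with DMSO and 361 ± 52 with Yoda1. Mcl1 (50.1 ± 4.3 and 41.5 ± 12.9) and Bcl2l1 (30.3 ± 2.8 and 33.6 ± 4.1) followed, then Pmaip1 (13.8 ± 2.1 and 12.8 ± 2.9), Bbc3 (10.8 ± 1.4 and 12.6 ± 1.0) and Bcl2 (7.28 ± 0.70 and 7.35 ± 0.93). Bid (5.19 ± 1.81 and 4.41 ± 2.49), Bcl2a1b (1.73 ± 0.31 and 1.54 ± 1.76), Bak1 (1.17 ± 0.88 and 1.39 ± 0.30) and Bcl2l11 (0.612 ± 0.334 and 0.482 ± 0.173) were the lowest. The order of the 10 members was the same in DMSO and in Yoda1. In the DMSO libraries, neighbours overlapped between Pmaip1 and Bbc3, between Bcl2 and Bid, between Bcl2a1b and Bak1 and between Bak1 and Bcl2l11. In the Yoda1 libraries they overlapped between Mcl1 and Bcl2l1, Pmaip1 and Bbc3, Bcl2 and Bid, Bid and Bcl2a1b, and Bcl2a1b and Bak1. With the length of the longest transcript in place of all exons, Bcl2l1 came before Mcl1 in both groups and Bbc3 before Pmaip1 with Yoda1.

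**Figure D3:**
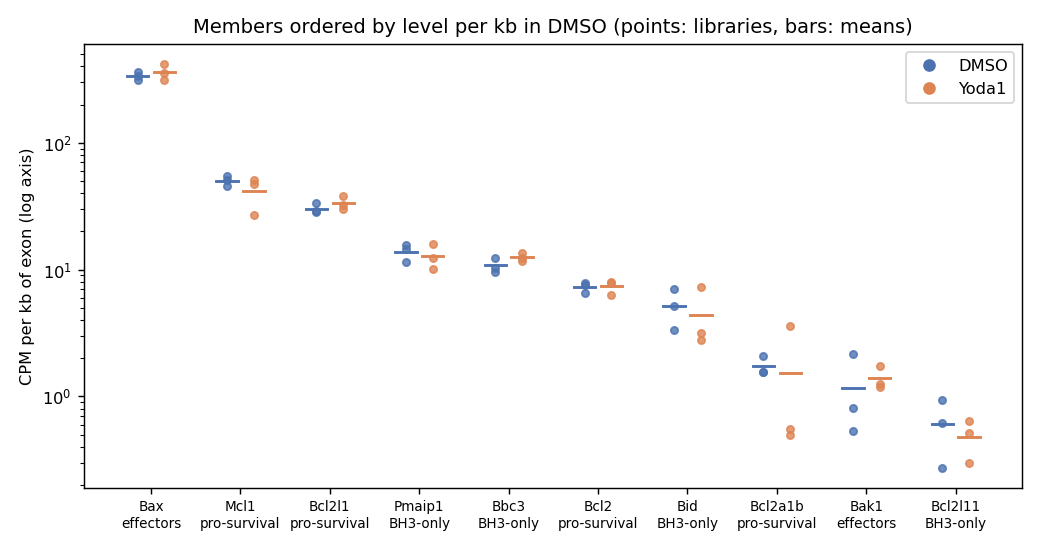
The plot of members by level per kilobase shows CPM per kilobase of exon on a log axis, with points for libraries and bars for group means, ordered by the DMSO mean. Bax stands above the other members in every library, and the order from Bax to Bcl2l11 is the same in both groups.

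Ratios of single pairs, which cancel differences in depth between libraries, did not separate the groups either. The log2 ratio of Bcl2 to Bax per length was -5.51, -5.59 and -5.49 with DMSO and -5.28, -5.51 and -6.05 with Yoda1. That of Bcl2l1 to Bax was the steadiest, at -3.42, -3.46 and -3.54 with DMSO and -3.37, -3.45 and -3.45 with Yoda1. Bax thus exceeded both inhibitors at the transcript level in all 6 libraries. For Mcl1 over Pmaip1, an inhibitor over its preferred BH3-only partner, the values were 2.13, 1.91 and 1.55 with DMSO and 1.41, 2.04 and 1.56 with Yoda1. For Mcl1 over Bcl2l11 they were 7.52, 6.46 and 5.60 with DMSO and 6.50, 6.64 and 6.20 with Yoda1, and for Bcl2 over Bcl2l11 4.83, 3.40 and 2.99 and 4.75, 3.93 and 3.30. The groups overlapped for all 5 pairs.

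In the members, the libraries that share a label number were the most alike. Over the 10 members, the root mean square difference of log2 CPM was 0.388 between DMSO 2 and DMSO 3 and 0.430 between Yoda1 4 and Yoda1 5. The other pairs within a group differed by 0.687 to 1.04, and pairs across groups by 0.522 to 0.941. Over all tested genes DMSO 2 and DMSO 3 were not the closest DMSO pair (0.905, against 0.862 for DMSO 1 and 2), and Yoda1 4 and 5 were the closest Yoda1 pair by less (0.983, against 1.10 and 1.08). Within the Yoda1 group, 7 of the 10 members were highest in Yoda1 6 and 7 were lowest in Yoda1 4. These places were not counted over all tested genes, so they are not shown to be particular to the members.

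The other genes of the pathway were taken from 8 lists. These were chosen with earlier results of these data known, so the share of them called is not a test of the pathway. Of their 98 genes 93 were in the table and 91 were tested; edgeR called 6 of them lower, 0 higher and left 85 without a call, beside 0.923% lower and 0.57% higher over all tested genes. An unadjusted p under 0.05 was reached by 11 genes that were lower and 8 that were higher, beside 948 and 985 of all 13325 tested genes. With voom the calls were 8 lower and 1 higher, beside 179 and 121 of all 13325 genes. With DESeq2, under the limit given above, they were 10 and 2, beside 496 and 422 of 14457 genes. The median log2 change of the 91 genes was -0.076. All 6 stayed negative, at a similar size, with any library left out. The number past the threshold moved with the number of calls over all genes, which ran from 4 higher and 5 lower without DMSO 3 to 74 and 146 without Yoda1 6: of the lists, edgeR called 1 of the 91 genes lower without DMSO 1, 1 without DMSO 2, 0 without DMSO 3, 5 without Yoda1 4, 2 without Yoda1 5 and 6 without Yoda1 6. For DMSO 1 alone against Yoda1, with libraries of a shared label number summed, or with the label suffix as a term, none of the 91 was called lower and at most 2 genes of the whole table were called higher and 1 lower; in these fits Pim2 was at -1.36, -1.37 and -1.42 and Nfkb1 at -0.72, -0.75 and -0.73.

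**Figure D4:**
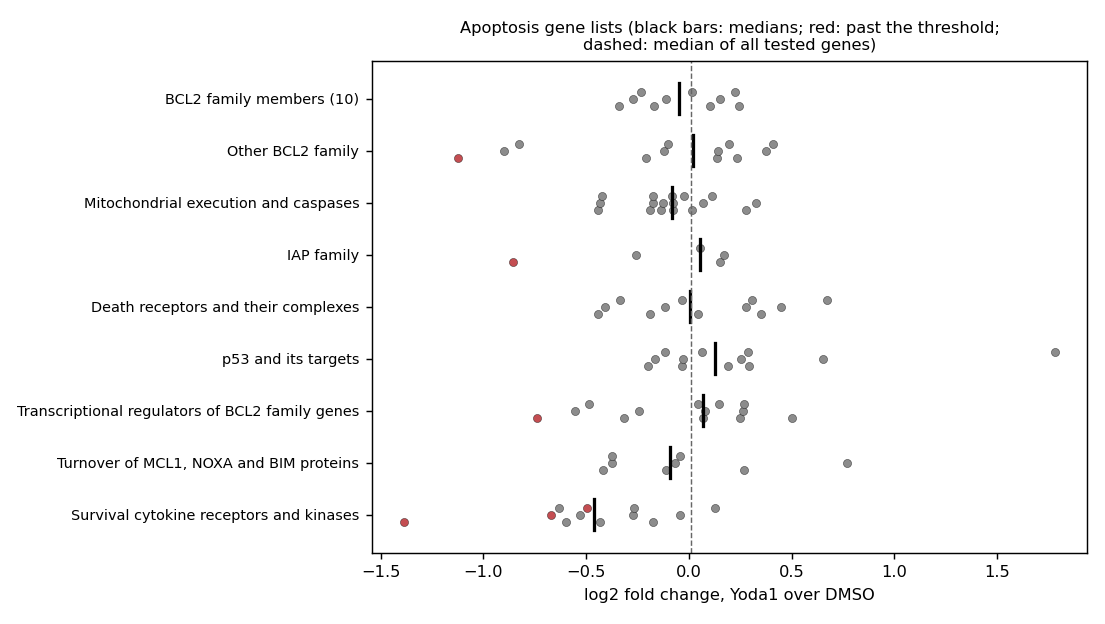
The plot of apoptosis lists shows the log2 change of every tested gene, 1 row per list, with black bars for list medians, red points for genes past the threshold and a dashed line at the median of all tested genes. The list of survival cytokine receptors and kinases has its median at -0.46 and holds 3 of the 6 red points; the 10 members cluster around 0.

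Among 12 tested relatives in the BCL2 family, Bnip3 fell, 11 did not pass and the median was 0.020. Bnip3 encodes a BH3-like protein of the outer mitochondrial membrane that acts mainly in mitophagy and responds to hypoxia. It fell from 150, 170 and 157 CPM with DMSO to 66.1, 59.9 and 93.0 CPM with Yoda1, and every Yoda1 library was below every DMSO library. Its log2 change was -1.13 (SE 0.17, adjusted p = 0.021), and in the fits with a library left out the change was -1.34 to -1.0, with adjusted p of 0.0047 to 0.13. Its paralog Bnip3l was at 127 ± 7 and 168 ± 26 CPM (adjusted p = 0.20), with the groups apart in the other direction.

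The IAP family, which blocks caspases downstream of the mitochondria, had 1 of 5 tested members lower and a median of 0.054. Birc5 encodes survivin, which also works in chromosome segregation. It fell from 313, 349 and 336 CPM to 154, 177 and 222 CPM, with no overlap, a log2 change of -0.85 (SE 0.14, adjusted p = 0.027). With a library left out the change was -1.01 to -0.74; it was called in 2 of those 6 fits, and the highest adjusted p was 0.15.

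Survival cytokine receptors and their kinases gave the lowest median of the lists, -0.46, with 11 of 12 changes negative. Over all 13325 tested genes, 6524 changes were negative. Of the 12, 3 fell and 9 did not pass, and DESeq2 called 6 lower and voom 5. Over all genes edgeR called 123 lower, DESeq2 496 of 14457 and voom 179. As the list was chosen with earlier results of these data known, these counts are not a test of it. Pim2, a kinase induced by STAT5 that promotes survival and phosphorylates BAD, fell from 206, 211 and 215 CPM to 93.2, 64.5 and 84.3 CPM. Its log2 change was -1.38 (SE 0.15, adjusted p = 0.0054), and it was -1.50 to -1.25 with a library left out, past the threshold in 5 of those 6 fits (adjusted p = 0.061 without DMSO 3). Its relative Pim1 fell from 487, 511 and 510 CPM to 362, 370 and 338 CPM (log2 change -0.50, SE 0.08, adjusted p = 0.030), and stayed at -0.52 to -0.46 there, called in 1 of the 6 fits. Il2ra, which encodes CD25 and raises the affinity for IL-2, fell from 1156, 1144 and 1182 CPM to 776, 682 and 731 CPM (-0.67, SE 0.08, adjusted p = 0.0071), and stayed at -0.72 to -0.62, called in 3 of 6. For all 3 the groups stood apart, as they did for 22.6% of all tested genes. These 3 are named because they passed the test, which favours groups that stand apart. The pro-survival genes Bcl2, Bcl2l1 and Mcl1, which did not pass, overlapped as shown above. This contrast is therefore not a result about either set, and the difference between those changes was not tested.

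Of 13 transcriptional regulators of the family, Nfkb1 fell, 12 did not pass and the median was 0.071. Nfkb1, which encodes the p105 and p50 subunit of NF-kB, fell from 336, 354 and 340 CPM to 209, 205 and 202 CPM, a log2 change of -0.74 (SE 0.09, adjusted p = 0.0073). The change was -0.76 to -0.72 with a library left out, called in 2 of those 6 fits with adjusted p of at most 0.078.

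No gene was called by edgeR in the remaining 4 lists. Their counts at an unadjusted p under 0.05 stand beside 985 higher and 948 lower of all 13325 tested genes. Among 17 genes of mitochondrial execution and the caspases (median -0.084; unadjusted, 1 higher and 0 lower, none in DESeq2 or voom), the smallest p values were those of Vdac3, an outer membrane channel, at 202 ± 5 and 245 ± 25 CPM (adjusted p = 0.28), and of the executioner caspase gene Casp6, at 49.7 ± 7.6 and 36.9 ± 6.3 CPM (adjusted p = 0.36). Among 12 death receptor genes (median 0.0055; 3 higher and 0 lower unadjusted, none in DESeq2 or voom), they were those of the adaptors Tradd, at 74.8 ± 12.8 and 102 ± 12 CPM (adjusted p = 0.24), and Traf2, at 134 ± 12 and 166 ± 7 CPM (adjusted p = 0.25). Of 12 genes of p53 and its targets (median 0.13; 2 higher and 0 lower unadjusted), DESeq2 called 2 higher and voom 1. The tetraspan membrane protein gene Perp was at 2.94 ± 1.53 and 10.0 ± 2.6 CPM (adjusted p = 0.10), and the stress sensor Sesn1 at 38.8 ± 5.4 and 61.0 ± 10.9 CPM (adjusted p = 0.15). The p53 targets Bbc3, Bax and Pmaip1 did not pass either. Of 8 genes that act on the stability or release of MCL1, NOXA and BIM (median -0.091; 1 higher and 1 lower unadjusted, 1 lower in DESeq2, 0 in voom), Dynll1, the dynein light chain that BIM binds, was at 373 ± 11 and 280 ± 35 CPM (adjusted p = 0.12). Fbxw7, a ubiquitin ligase subunit that targets MCL1, was at 9.62 ± 2.10 and 16.4 ± 4.6 CPM (adjusted p = 0.29).

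The genes whose pattern over the 6 libraries was most like that of Mcl1, the pro-survival member with the smallest p, were Cep164, Dgkz and Siah2. Their centred log2 CPM differed from that of Mcl1 by a root mean square of 0.066, 0.075 and 0.083, among 8786 genes compared. For Bbc3, the pro-death member with the smallest p, they were Urod, Mob4 and Synj2bp, at 0.044, 0.045 and 0.049. Like Mcl1, Cep164 had its lowest level in Yoda1 4 (7.55 CPM, against 11.5 to 14.8 CPM in the other libraries). Like Bbc3, Urod was highest in Yoda1 6 (99.3 CPM) and lowest in DMSO 2 (72.2 CPM). None of these 6 genes passed the test.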

How the data were processed

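The deposited table holds, as deposited by the authors, estimated counts by gene for 6 libraries, many of them fractional, with totals that differ between libraries. Per the submitters' processing notes the build was mm10. Not given in the sources used here: aligner, counter, strand setting, annotation, filters. Every gene totals at least 10 over the libraries. The table's own treatment column and the design text call the control PBS, where the sample labels say DMSO; the labels were followed. Counts were rounded and fitted with edgeR 4.0.16 in R 4.3.3 over all genes (TMM factors, filterByExpr with a minimum count of 10 and a minimum total of 15, glmQLFit and glmQLFTest, no covariate), with Benjamini-Hochberg adjustment over 13325 genes and a threshold of 0.05. The SE is the size of the change over the square root of F, and 95% intervals use the test's degrees of freedom. Marker sums are CPM of all counts. Exon lengths and positions came from GENCODE M21 (GRCm38). DESeq2 1.42.0, limma 3.58.1, other factors and filters, label number or suffix in the fit, and leaving out each library were alternatives; summing the Bcl2a1 copies was chosen after seeing the data. The fits were tested on data simulated with the spread that edgeR had estimated for each gene. False calls there exceeded the nominal rate for DESeq2 and not for edgeR or voom, which does not rank the tools on the real counts. Members and lists were chosen with earlier results of these data known. The text names all 10 members, the genes past the threshold in each list or, where none passed, the 2 with the smallest p, and 3 genes most like each of 2 members; Bnip3l, Bcl2a1a and Bcl2a1d were added after their values were seen. Libraries of a group differed by more than sampling noise, with chi-square over degrees of freedom of at least 18.1.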

Additional observations from a re-analysis of the deposited data

How the results depend on the processing

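No member was called under any of the alternatives run, with 16 or 17 per member; the lowest adjusted p was 0.30, for Bid without Yoda1 6. Bak1, Bcl2l11 and Bcl2a1b have no value under the filter of 10 CPM in 3 libraries, which kept 7 members. Mcl1 (-0.44 to -0.037) and Bbc3 (0.022 to 0.33) kept their sign throughout. The sign turned for Bcl2 with upper quartile factors (-0.039), the 10 CPM filter (-0.020) and the label suffix as a term (-0.030). It turned with summed libraries of a shared label number for Bcl2 (-0.052), Bcl2a1b (0.21), Bak1 (-0.11), Bcl2l11 (0.055) and Pmaip1 (0.037), and with DMSO 1 alone for Bcl2 (-0.099), Bcl2l1 (-0.0041), Bak1 (-0.65), Bcl2l11 (0.80) and Pmaip1 (0.14). With each library left out, ranges were -0.061 to 0.12 for Bcl2, -1.71 to 0.25 for Bcl2a1b, -0.011 to 0.20 for Bax, -0.11 to 1.04 for Bak1, -0.69 to 0.098 for Bcl2l11, -0.30 to 0.032 for Pmaip1 and -0.80 to 0.046 for Bid. The cause was not tested.

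Over all genes, 76 were higher and 123 lower, and 57 and 174 with upper quartile factors; DESeq2 gave 422 and 496, voom 121 higher, no filter 50 higher, the 10 CPM filter 158 and 290, a random effect of label number 151 and 213, the suffix term 2 and 1, summed libraries 1 and 0, and DMSO 1 alone 0 and 0. The correlation estimated for label number was -0.062, so the random effect does not guard against libraries of a shared number being repeats of 1 sample. Leaving out a library gave 4 to 74 higher and 5 to 146 lower. Of the other apoptosis genes, 6 lower and 0 higher, DESeq2 gave 10 and 2, the 10 CPM filter 10 lower, voom and the random effect 1 higher, and summed libraries, DMSO 1 alone and the suffix term 0 lower; leaving out a library gave 0 to 6 lower. Longest transcript lengths moved 4 members in the order of levels. Fewer samples were fitted in the summed, single and left-out settings. With the suffix as a term, the Yoda1 change rests on DMSO 3 alone among the DMSO libraries. No paired analysis was possible because the groups share no replicate number. The members with the fewest counts, Bcl2a1b, Bak1 and Bcl2l11 (7 to 157 per library), had the widest intervals; the part of depth in this was not tested.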
